A study of Homo sapiens with 24 samples.

Results

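The change in gene expression that 8-amino-adenosine (8AA) brings about in KG-1a cells was compared between a late and an early time point. KG-1a is an established acute myeloid leukemia line, a poorly differentiated subline of KG-1 that keeps the stem and progenitor marker CD34. Cells were left untreated or received 1 μM 8AA and were collected at 8 h or at 24 h, which gives 4 groups of 2 libraries, A and B, and none of the groups carries a genetic change made for the study. The measure is the late minus early difference, (8AA − untreated at 24 h) − (8AA − untreated at 8 h) on the log2 scale, so a positive value means that a gene stood higher against its untreated control at 24 h than at 8 h. It was taken for all 12711 genes with enough counts for a test, of 23354 genes in the deposited table, from 8 of the 24 libraries of the series. The other libraries hold 8-chloro-adenosine (8CA) treatment of KG-1a and the same treatments of MV4-11, another acute myeloid leukemia line.

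8AA is an adenosine analog that cells phosphorylate to a triphosphate, and it acts on RNA: the analog competes with ATP in RNA synthesis, can end a growing transcript and interferes with the addition of the poly(A) tail. A transcript that turns over fast shows a block of synthesis within hours, whereas a stable transcript shows it late, and cells also respond to the altered supply of RNA and ATP with transcription programs of their own. A comparison of the same treatment at an early and a late time point therefore sorts genes by when their level moved. Levels here are relative to the other genes of a library. A loss of RNA shared by all genes would not show, and a rise can be a smaller fall.

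The 8 libraries held 18633963 to 23181651 counts. The library pair of 8AA at 24 h stood apart from the other pairs: the chi-square per degree of freedom of its counts was 12.25, where sampling noise alone gives 1, whereas the other 11 pairs of the series lay between 1.432 and 5.201. Library B of that pair placed 17.84% of its counts in genes that span at least 100 kb, against 16.51% in library A. The 6 other libraries of the comparison lay at 15.83% to 16.44%. Outside the comparison, libraries A and B of 8CA at 24 h in KG-1a lay at 17.49% and 17.67%, nearer to library B of 8AA than to library A. Counts without each library of the 8AA pair at 24 h are given beside the main lists. They are no check on the calls: the 1 library left has no spread of its own, so the spread comes from the other groups. Even the calls at 8 h, which do not use this pair, rose in number in these fits. CD34, SPN and CD7 were present, with CD34 at 360 to 687 CPM (counts scaled to a common library total), but SPN was higher in untreated MV4-11 (866 to 1000 CPM) than in KG-1a (546 to 840 CPM). Of the 8 MV4-11 markers, FLT3, CD33 and LYZ were at most 1.47 CPM and MEIS1 at 0, CD14 was low in both lines, and HOXA9 (22.9 to 29.7 CPM), ITGAM (8.41 to 15.2 CPM) and HOXA10 (68.0 to 92.8 CPM, against 60.5 to 70.3 CPM in untreated MV4-11) were expressed in KG-1a, so that the list summed to 115 to 128 CPM. The summed CPM of the 6 defining KG-1a markers was 1010 to 1070 in the untreated and 1080 to 1130 in the 8AA libraries at 8 h, and 1200 to 1220 and 1460 to 1580 at 24 h. Another of these markers, CD99, was at or near 0 (at most 0.0998 CPM). The T cell genes CD3D (230 to 279 CPM) and CD3E (24.9 to 85.5 CPM) were present while CD4 and CD8A were near 0, the erythroid markers summed to at most 0.157 CPM, and the part of a mixed cell population in the results was not tested. In bulk RNA, fewer cells of a type and less RNA per cell cannot be told apart.

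A gene was called where the p-value of edgeR's quasi-likelihood test, adjusted by the Benjamini-Hochberg method over all genes tested, was below 0.05. The late minus early difference was called for 2330 genes (18.3%), 971 higher (7.64%) and 1359 lower (10.7%). The change itself was called for 4415 genes at 8 h (34.7%), 2124 higher (16.7%) and 2291 lower (18%), and for 6600 genes at 24 h (51.9%), 3224 higher (25.4%) and 3376 lower (26.6%). Few of the differences were large, with 147 genes higher and 17 lower by at least 1 on the log2 scale. The number called was 3981 without library A and 3045 without library B of 8AA at 24 h, and as low as 1358 without library A of 8AA at 8 h, with 0 genes called in the opposite direction. The median difference over all genes was -0.01. Nothing in the labels says that libraries A and B came from separate cultures, so the p-values measure only the spread between libraries, which may be technical. That spread was pooled over the 12 KG-1a libraries, 8CA included, and can understate that of the 8AA pair at 24 h. With only the 8 libraries of the comparison in the fit, 1542 genes were called. The split of the calls for the difference depended on the scaling. With TMM factors 41.7% were higher, against 58.3% when libraries were scaled by size only and 60.8% with upper quartile scaling. Under library size scaling the median change of all genes at 24 h moved from 0.01 to 0.11. The share of higher calls at 24 h moved from 48.8% to 64.5%. The 2 genes just inside the threshold were ZNF34 (0.50) and COPS9 (-0.37), and the 2 just outside were CLN8 (-0.29) and ITGA10 (0.63).

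The difference equals the shift of the 8AA libraries from 8 h to 24 h minus the shift of the untreated ones. Of the 2330 genes, 2247 were also called in the same direction between the 8 h and the 24 h libraries of 8AA. The choice of genes by the difference helps to set this count. The untreated libraries moved in the opposite direction in 39, with 11 genes in both counts and 55 in neither. Over all genes tested, 5991 (47.1%) differed between 24 h and 8 h with 8AA and 566 (4.45%) without treatment.

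Genes were placed by the 3 calls into time patterns. Late changes, called at 24 h but not at 8 h with the difference called, were the commonest among genes with a called difference, with 443 rises and 720 falls. Growing changes, called at both time points and larger at 24 h, comprised 185 rises and 420 falls. Passing changes, called at 8 h but not at 24 h, comprised 119 rises and 185 falls. Fading changes, still called at 24 h but smaller, comprised 19 rises and 47 falls, and 94 genes turned from lower to higher and 60 from higher to lower. Lasting changes, called in the same direction at both time points without a called difference, were the largest class, with 1252 rises and 1181 falls. The remaining 7986 genes met no pattern: 4916 had no call at all, 2179 were called at 24 h only and 853 at 8 h only, without a called difference, and 38 were called for the difference only. A missing call does not show that a gene stayed the same.

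**Figure D1:**
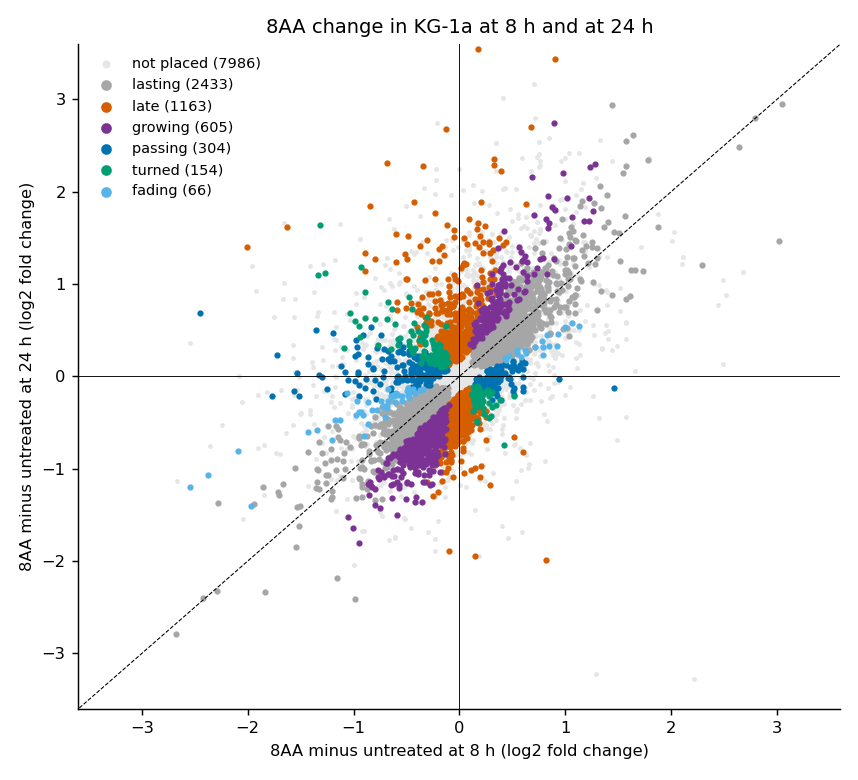
Each point is a gene of KG-1a, with the 8AA change at 8 h on the x axis and at 24 h on the y axis, both as log2 fold change against the untreated libraries of that time point, coloured by time pattern with the number of genes. Late genes spread along the vertical axis at an 8 h change near 0, passing genes along the horizontal axis, and lasting genes along the dashed line of equal change. 5 genes lie outside the axes.

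CPM values of single genes below are scaled by TMM factors and listed as library A and then B. Among the late rises, SPOCK2, a secreted proteoglycan, stood at 12.7 and 13.4 CPM in the untreated and 16.0 and 14.8 CPM in the 8AA libraries at 8 h, and at 18.5 and 21.3 CPM and 63.7 and 59.2 CPM at 24 h. At 24 h the treated libraries lay far above the untreated ones, with no overlap, which the rule for naming required. The difference was 1.39 ± 0.14 (SE, adjusted p = 1.5e-05). RAB37, a small GTPase of secretory granules, went from 18.4 and 17.2 CPM with 8AA at 8 h to 66.5 and 57.2 CPM at 24 h, whereas untreated cells had 19.2 and 20.3 CPM and then 23.1 and 26.7 CPM (difference 1.47 ± 0.13, adjusted p = 6.5e-06). MYO15B, a myosin-related gene (1.28 ± 0.19, adjusted p = 0.00038), and C1RL, a complement-related protease (1.17 ± 0.17, adjusted p = 0.00034), were the other late rises named by the rule of size, level and separation of the libraries.

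Among the growing rises, HEMGN, a nuclear protein of hematopoietic cells, was at 13.6 and 14.5 CPM untreated and 25.4 and 24.8 CPM with 8AA at 8 h, then at 18.2 and 21.6 CPM and 77.4 and 76.8 CPM at 24 h. Its change thus grew from 0.84 to 1.95 (difference 1.12 ± 0.12, adjusted p = 2.6e-05). BTG2, an anti-proliferative gene that p53 can induce, had 14.6 and 13 CPM untreated against 17.8 and 17.8 CPM with 8AA at 8 h, and 11.8 and 13.4 CPM against 34.9 and 31.2 CPM at 24 h (difference 1.03 ± 0.14, adjusted p = 0.00021). COL24A1, a fibrillar collagen, followed the same course (0.92 ± 0.27, adjusted p = 0.026), but its call was lost when any of 4 libraries was left out, among them both 8AA libraries at 8 h.

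Turned genes changed sign between the time points. CLEC2D, a lectin-like ligand of lymphocyte receptors, stood at 10.0 and 10.6 CPM untreated and 4.84 and 4.83 CPM with 8AA at 8 h, but at 10.2 and 10.3 CPM untreated and 12.4 and 13.1 CPM with 8AA at 24 h. The groups did not overlap at either time, which the rule for naming genes by this pattern required. The change of CLEC2D went from -1.09 to 0.31 (difference 1.40 ± 0.14, adjusted p = 2.1e-05). KANK3, a cytoskeletal adaptor, turned from -0.64 to 0.73. In the other direction, NRIP3 had 94.3 and 94.1 CPM untreated against 117 and 113 CPM with 8AA at 8 h, and 93.1 and 94.2 CPM against 71.3 and 65.6 CPM at 24 h (difference -0.73 ± 0.08, adjusted p = 3.0e-05). PCBD1, a cofactor-recycling enzyme and transcriptional partner, turned from 0.30 to -0.43. BCL2, the survival protein that venetoclax binds, also turned, on a small scale: its libraries read 292 and 305 CPM untreated and 254 and 253 CPM with 8AA at 8 h, and 295 and 289 CPM and 317 and 341 CPM at 24 h (difference 0.41 ± 0.06, adjusted p = 0.0005).

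Passing falls were present at 8 h and no longer called at 24 h. CELSR3, a cadherin with laminin repeats, read 8.56 and 10.2 CPM untreated against 5.37 and 4.31 CPM with 8AA at 8 h, and 9.43 and 10.9 CPM against 10.4 and 10.7 CPM at 24 h. Its 24 h groups overlapped (difference 1.01 ± 0.18, adjusted p = 0.0013). ZMAT1, a zinc finger gene, DNHD1, a dynein-like gene, and TSPOAP1, a synaptic scaffold gene, had differences of 1.01, 0.91 and 0.86. Among the passing rises, MLLT11, a partner of MLL fusions, went from 72.7 and 80.2 CPM untreated to 114 and 118 CPM with 8AA at 8 h, and stood at 70.5 and 68.1 CPM against 68.3 and 69.3 CPM at 24 h (difference -0.61 ± 0.08, adjusted p = 0.00014). DERL3, which takes part in the disposal of misfolded proteins from the endoplasmic reticulum, changed by 0.51 at 8 h and by -0.13 at 24 h. TRIM6 (-0.77, adjusted p = 0.012) and CAVIN2 (-0.57, adjusted p = 0.024) had weaker support: the first was not called without library B of the untreated cells at 24 h, and the other was not called with DESeq2 nor without any of 6 libraries.

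**Figure D2:**
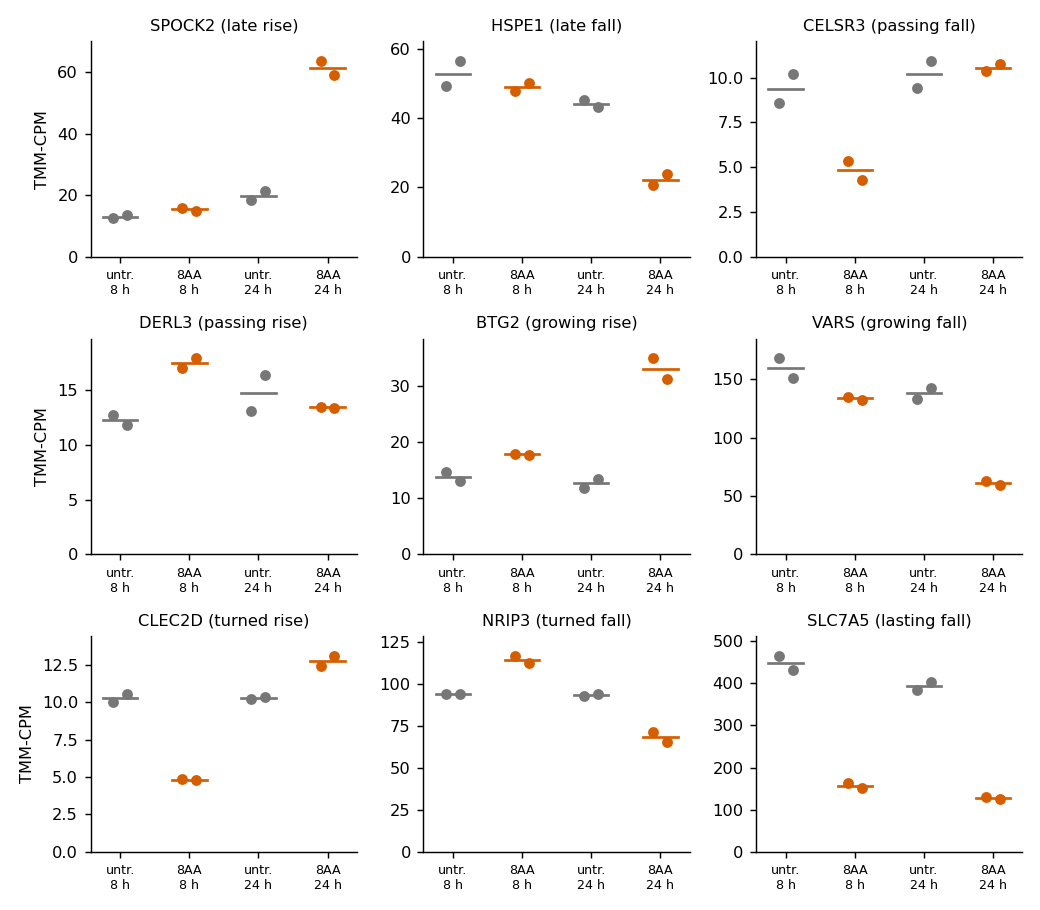
TMM-normalised CPM of 9 genes in each library of KG-1a, untreated (grey) and with 8AA (orange) at 8 h and 24 h, where each point is a library and each line the mean of 2. SPOCK2 and HSPE1 were called at 24 h only, CELSR3 and DERL3 at 8 h only, CLEC2D and NRIP3 in opposite directions at both times, and SLC7A5 by about the same fold at both.

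Chaperones were mostly lower at 8 h already and lower still at 24 h. Of 37 cytosolic and mitochondrial chaperone genes tested, 24 were lower and 0 higher at 8 h, 33 were lower and 0 higher at 24 h, and 25 were called lower for the difference and 0 higher, with a median of -0.34. The lower calls numbered 32 without library A and 25 without library B of 8AA at 24 h. By role, 8 of 9 mitochondrial chaperones, 7 of 8 subunits of the cytosolic chaperonin and 9 of 12 constitutive chaperones and partners were lower, and 1 of 8 inducible heat shock proteins. HSPD1 and HSPE1 encode the folding chamber and the lid of the mitochondrial chaperonin. HSPD1 was at 1426 and 1462 CPM untreated and 1284 and 1259 CPM with 8AA at 8 h, and at 1303 and 1263 CPM and 647 and 605 CPM at 24 h, so that the treated libraries parted widely from the untreated ones at 24 h (difference -0.85 ± 0.06, adjusted p = 2.6e-06). HSPE1 had 49.2 and 56.5 CPM untreated and 48.0 and 50.3 CPM with 8AA at 8 h, and 45.2 and 43.2 CPM and 20.7 and 23.8 CPM at 24 h (difference -0.89 ± 0.11, adjusted p = 0.00011). HSP90AB1, the constitutive HSP90, went from a change of -0.10 at 8 h to -0.85 at 24 h, and TRAP1, its mitochondrial relative, from -0.39 to -1.05.

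HSPD1 and HSPE1 lie head to head, and the start sites of both in RefSeq on GRCh38.p14 are 105 bases apart on opposite strands, so that 104 bases of the windows shown for them overlap. The 250 bases before the start of 4 genes that fell late or increasingly are shown because each holds the E-box CACGTG, printed in capitals, which MYC and related factors bind in many promoters of growth genes. They were picked for it: of the 40 named late and growing falls with a promoter in the table, 6 hold it upstream of the start. The windows are chr2:197500275-197500524 (minus strand) for HSPD1, chr2:197500129-197500378 (plus strand) for HSPE1, chr11:18394313-18394562 (plus strand) for LDHA, which encodes a lactate dehydrogenase subunit, and chr1:11060019-11060268 (minus strand) for SRM, the spermidine synthase gene.
HSPD1: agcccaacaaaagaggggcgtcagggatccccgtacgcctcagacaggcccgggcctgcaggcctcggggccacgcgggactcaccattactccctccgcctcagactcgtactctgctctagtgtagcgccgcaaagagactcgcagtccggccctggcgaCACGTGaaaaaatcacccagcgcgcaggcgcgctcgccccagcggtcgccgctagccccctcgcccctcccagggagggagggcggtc
HSPE1: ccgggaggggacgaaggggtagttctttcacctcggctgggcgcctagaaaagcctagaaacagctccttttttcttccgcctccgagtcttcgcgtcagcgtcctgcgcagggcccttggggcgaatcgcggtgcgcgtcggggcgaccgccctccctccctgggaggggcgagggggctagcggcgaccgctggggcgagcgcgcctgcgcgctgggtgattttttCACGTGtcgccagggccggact
LDHA: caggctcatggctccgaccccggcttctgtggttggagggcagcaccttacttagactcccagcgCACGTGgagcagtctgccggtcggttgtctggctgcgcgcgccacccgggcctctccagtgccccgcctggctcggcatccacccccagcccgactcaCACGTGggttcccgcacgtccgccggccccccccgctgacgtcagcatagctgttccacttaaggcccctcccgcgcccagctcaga
SRM: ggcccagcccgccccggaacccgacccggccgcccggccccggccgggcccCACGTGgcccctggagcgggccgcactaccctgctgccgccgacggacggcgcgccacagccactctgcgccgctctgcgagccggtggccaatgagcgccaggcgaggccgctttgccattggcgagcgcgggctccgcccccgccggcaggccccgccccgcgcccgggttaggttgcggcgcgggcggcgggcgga
The E-box of the shared stretch begins 88 bases before the HSPD1 start and 22 bases before that of HSPE1, LDHA holds a pair at 185 and 87 bases before its start, and that of SRM lies 199 bases before. Over windows from 250 bases before to 50 after the start, CACGTG was found in 20.3% of the 344 promoters of growing falls, 13.4% of 576 of late falls and 14.7% of 909 of lasting falls. It was found in 10.4% of the 9597 promoters of all genes tested that could be matched by symbol, and in 7.43% of all 27305 promoters of the table. The motif reads the same on both strands. The share was 7.59% of 936 lasting rises and 10.4% of 316 late rises. The median GC content of the growing fall promoters was 65.7%, against 65.0% over all genes tested. For the other motifs searched, on both strands, growing falls and all genes tested were set side by side: CCAAT boxes, searched as ATTGG, were in 36.0% and 36.8%, CRE cores (TGACGTC) in 4.94% and 5.61%, ETS sites (CCGGAAG) in 25.3% and 19.96%, and TATA boxes (TATAAA) in 4.36% and 5.52%. A match is a description of the letters and not a binding site.

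Most glycolysis enzymes were not called at 8 h and fell by 24 h. Of 27 glycolysis genes tested, 16 were called lower for the difference and 0 higher (median -0.36), among them 14 of 18 enzymes. At 8 h, 8 were lower and 1 higher than in untreated cells, and at 24 h 20 were lower and 1 higher. The lower calls for the difference numbered 17 without library A and 16 without library B of 8AA at 24 h. LDHA read 1300 and 1282 CPM untreated and 1223 and 1195 CPM with 8AA at 8 h, and 1230 and 1242 CPM and 705 and 628 CPM at 24 h (difference -0.80 ± 0.07, adjusted p = 6.5e-06). ENO1, PGK1 and TPI1, which encode enolase, phosphoglycerate kinase and triosephosphate isomerase, had 8 h changes of -0.03, -0.02 and 0.02 and 24 h changes of -0.71, -0.67 and -0.61. All 4 sugar transporters of the list were already lower at 8 h, and 1 of them was called for the difference. Hypoxia targets outside glycolysis gave 2 lower calls among 20 (median -0.06), 10.0% against 10.7% over all genes tested. These were TFRC, the transferrin receptor, and ADM, which was below 2 CPM in all libraries and whose call was lost in 4 alternatives.

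Genes of the endoplasmic reticulum stress response moved in the same direction. Of 26 tested, 13 were called lower and 0 higher for the difference (median -0.28), and 12 of these 13 were among the 14 chaperones and folding enzymes, against 0 of 5 sensors and factors. Without either library of 8AA at 24 h, 14 were called lower. HSPA5, the main chaperone of the compartment, read 1410 and 1349 CPM untreated and 1128 and 1073 CPM with 8AA at 8 h, and 839 and 860 CPM and 479 and 413 CPM at 24 h. The untreated level also fell between the time points, and the difference against it was -0.60 ± 0.08 (adjusted p = 0.00017). PDIA4, a disulfide isomerase, went from -0.13 at 8 h to -0.84 at 24 h.

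Targets of ATF4, the transcription factor of the amino acid response, were mostly lower at both times and lower still at 24 h. Of 41 tested, 30 were lower and 2 higher at 8 h, 36 were lower and 2 higher at 24 h, and the difference was called lower in 16 and higher in 1 (median -0.23). PSAT1, of serine synthesis, read 165 and 169 CPM untreated against 107 and 114 CPM with 8AA at 8 h, and 180 and 178 CPM against 63.2 and 64.0 CPM at 24 h (difference -0.90 ± 0.07, adjusted p = 2.6e-06). PHGDH, the first enzyme of the same pathway, had 61.9 and 56.1 CPM against 54.6 and 56.2 CPM at 8 h, and 74.4 and 75.4 CPM against 44.9 and 38.0 CPM at 24 h. VARS, the valyl-tRNA synthetase gene, fell from 133 and 143 CPM to 63.1 and 59.4 CPM at 24 h and from 168 and 151 CPM to 135 and 132 CPM at 8 h (difference -0.91 ± 0.08, adjusted p = 7.0e-06). The gene with the higher call was DDIT3, a stress-induced transcription factor at 2.02 to 4.84 CPM (difference 1.18 ± 0.27, adjusted p = 0.0068). SLC7A5, a large neutral amino acid transporter in the same list, was the lasting fall with the largest change among genes that met the rule for naming: 465 and 431 CPM untreated against 162 and 151 CPM at 8 h, and 384 and 403 CPM against 131 and 125 CPM at 24 h (difference -0.11 ± 0.07, adjusted p = 0.35). The count of lower ATF4 targets was 25 without library A and 16 without library B of 8AA at 24 h, 9 without library A of 8AA at 8 h and 10 without library B of the untreated cells at 24 h or with upper quartile scaling.

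Ribosome biogenesis genes were already lower at 8 h and fell further. Of 55 tested, 49 were lower and 0 higher at 8 h, 52 were lower and 0 higher at 24 h, and the difference was called lower in 34 and higher in 0 (median -0.26). Nucleolar and snoRNP proteins gave 11 of 13 lower calls, processing factors 21 of 35, and subunits of RNA polymerase I 2 of 7. RRP12, which exports ribosomal subunits, read 94.3 and 89.9 CPM untreated against 59.5 and 59.1 CPM with 8AA at 8 h, and 66.7 and 69.8 CPM against 29.4 and 25.4 CPM at 24 h (difference -0.68 ± 0.09, adjusted p = 0.00017). EBNA1BP2 and MRTO4, also ribosome assembly factors, had differences of -0.73 and -0.55. The lower calls of the list numbered 40 without library A and 34 without library B of 8AA at 24 h, 21 without library A of 8AA at 8 h and 22 with upper quartile scaling.

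Genes of the respiratory chain fell late. Of 77 nuclear-encoded subunits, 8 were higher and 2 lower at 8 h, 2 were higher and 41 lower at 24 h, and 31 were called lower and 0 higher for the difference (median -0.26). ATP5G1, a gene for the membrane ring of ATP synthase, had 102 and 91.8 CPM untreated against 93.7 and 89.1 CPM at 8 h, and 83.0 and 82.6 CPM against 47.2 and 39.4 CPM at 24 h (difference -0.85 ± 0.10, adjusted p = 9.9e-05). Cytosolic ribosomal protein genes, another group of short and abundant transcripts, gave 0 calls in either direction among 78 (median -0.10) in edgeR's test, with 8 lower and 0 higher at an unadjusted p below 0.05, and 0 calls in DESeq2's. Both counts changed when 1 library of the 8AA pair at 24 h was left out, in fits where that group has no spread of its own. Without library A, 64 ribosomal protein genes and 59 respiratory chain genes were called lower. Without library B, 1 and 33 were called lower and 3 ribosomal protein genes higher. Without library A of 8AA at 8 h, 18 respiratory chain genes were called lower.

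The difference followed the length of the exons of a gene, and this too rested on that pair. With the genes in 5 bins of equal number, in the bin of the shortest exon length (up to 1.964 kb) the median difference was -0.09, with 14.3% of genes called lower and 3.89% higher, and in the bin of the longest (over 5.95 kb) it was 0.05, with 7.16% lower and 12.8% higher. Without library A the medians were -0.14 and 0.11, and without library B -0.04 and -0.01. Late falls had a median exon length of 2.725 kb and late rises of 4.347 kb, against 3.469 kb over all genes tested. The median level of late falls was 6.38 and that of late rises 4.62 on the log2 CPM scale, against 5.06 over all genes, and their median span in the genome was 20.79 kb and 35.36 kb against 27.88 kb. Turned rises were the longest of the classes with a called difference by exon length, at 5.249 kb, with a span of 43.08 kb.

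**Figure D3:**
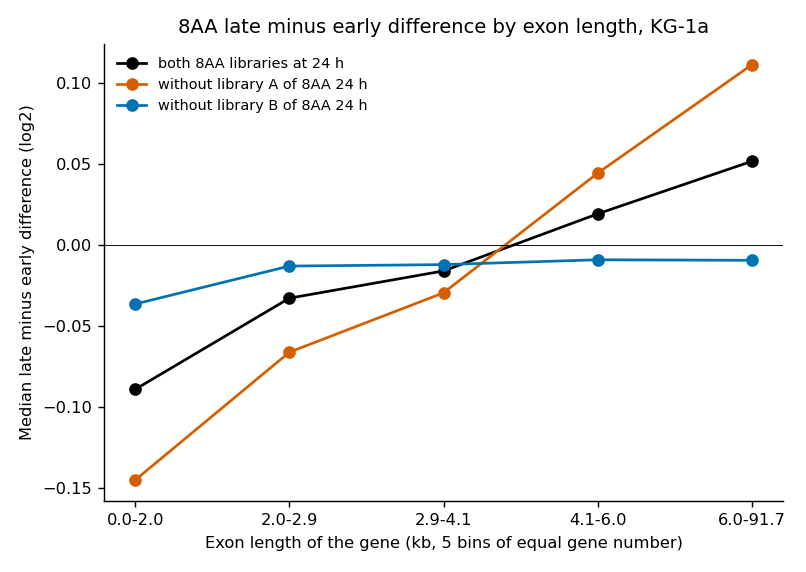
Median late minus early difference (log2, y axis) in 5 bins of genes by exon length (kb, x axis), from both 8AA libraries at 24 h (black), without library A (orange) and without library B (blue). The black line climbs from -0.09 to 0.05, the orange line is steeper, and the blue line stays between -0.04 and -0.01.

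DNA replication and mitosis genes parted. Of 46 replication genes, 16 were higher and 4 lower at 8 h, 3 were higher and 28 lower at 24 h, and the difference was called lower in 23 and higher in 0 (median -0.24), with 33 lower without library A and 25 without library B of 8AA at 24 h. RRM2, a subunit of ribonucleotide reductase, read 353 and 357 CPM untreated against 352 and 359 CPM with 8AA at 8 h, and 356 and 347 CPM against 257 and 246 CPM at 24 h (difference -0.49 ± 0.06, adjusted p = 7.1e-05). MCM4 of the replicative helicase and POLD2 of DNA polymerase delta had differences of -0.44 and -0.55. Of 42 mitosis and G2/M genes, 5 were higher and 11 lower at 8 h, 25 were higher and 4 lower at 24 h, and the difference was called higher in 16 and lower in 0 (median 0.21). CENPF, a kinetochore protein gene, read 517 and 515 CPM against 544 and 545 CPM at 8 h, and 489 and 485 CPM against 668 and 733 CPM at 24 h (difference 0.45 ± 0.06, adjusted p = 0.00026). NEK2, a mitotic kinase of the centrosome, changed by -0.03 and then by 0.46. ASPM, a spindle pole protein gene of long exons, read 350 CPM in library A and 503 CPM in library B of 8AA at 24 h, against 319 and 320 CPM untreated, and its call (0.47, adjusted p = 0.043) was lost in 8 alternatives. The number of higher mitosis calls was 20 without library A and 24 without library B and 25 with upper quartile scaling, and 7 to 10 without any single library of the other 3 groups.

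Among NF-kappaB genes and short-lived transcripts, nearly all called differences were higher, though most members were not called. Of 26 NF-kappaB genes, 10 were called higher and 0 lower (median 0.14). TNFAIP3, which ends the signal and is itself a target, read 22.0 and 19.1 CPM untreated against 35.4 and 37.0 CPM with 8AA at 8 h, and 26.4 and 28.2 CPM against 87.5 and 90.5 CPM at 24 h (difference 0.88 ± 0.10, adjusted p = 6.4e-05). LTB, a membrane cytokine of the TNF family, turned from -0.34 to 0.55, RELB rose late (difference 0.66 ± 0.14) and NFKB2 rose increasingly (0.60 ± 0.12). Of 49 immediate early and other short-lived transcripts, 11 were higher and 18 lower at 8 h, 15 were higher and 15 lower at 24 h, and the difference was called higher in 12 and lower in 1 (median 0.16), while the median change at 24 h was -0.01. DUSP6, the phosphatase that restrains ERK and is induced by it, had the largest difference of the called members: 37.6 and 38.2 CPM untreated against 8.60 and 9.14 CPM with 8AA at 8 h, and 43.7 and 40.5 CPM against 25.4 and 22.8 CPM at 24 h. Its fall of -2.10 thus shrank to -0.80 (difference 1.29 ± 0.11, adjusted p = 6.5e-06). FOSL1, an AP-1 subunit and another ERK target, stayed lower at both times (-1.26 and -1.15). ZFP36L1, which promotes decay of AU-rich transcripts, rose late (difference 0.61 ± 0.08). The higher calls of the short-lived transcripts fell to 7 without untreated library A at either time or either 8AA library at 8 h, and those of NF-kappaB to 6 without library B of the untreated cells at either time or either 8AA library at 8 h.

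**Figure D4:**
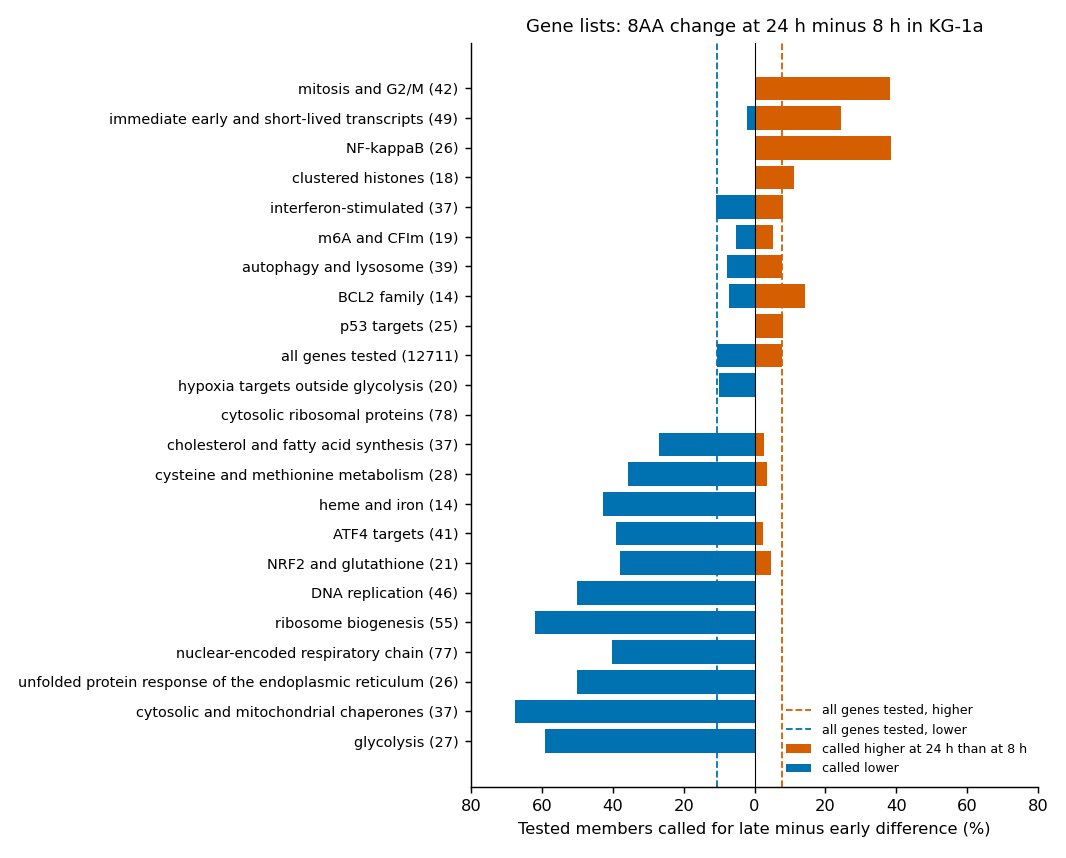
Share of the tested members of each gene list (number in parentheses) called higher (orange, to the right) or lower (blue, to the left) for the late minus early difference of 8AA in KG-1a, in percent, with dashed lines at the shares over all genes tested, 7.64% higher and 10.7% lower. Glycolysis, chaperone and ribosome biogenesis genes reach the furthest to the left, and NF-kappaB and mitosis genes to the right.

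Among genes of lipid, iron and redox metabolism, nearly all called differences were lower, though most members were not called. Cholesterol and fatty acid synthesis had 10 lower calls and 1 higher among 37 (median -0.17), with SCD, the fatty acid desaturase, at 1056 and 1021 CPM against 844 and 815 CPM at 8 h and 1187 and 1224 CPM against 695 and 662 CPM at 24 h (difference -0.50 ± 0.06, adjusted p = 7.1e-05). Heme and iron genes gave 6 lower and 0 higher calls among 14 (median -0.21) and NRF2 and glutathione genes 8 lower and 1 higher among 21 (median -0.23). In the change at 24 h itself, 4 heme and iron genes were higher and 6 lower. FTL, the ferritin light chain, went from a change of 0.04 to -0.56, and TXN, thioredoxin, from 0.05 to -0.64. Without library A of 8AA at 24 h, 20 lipid synthesis and 13 NRF2 and glutathione genes were called lower, and the latter count was 5 without any of 4 other libraries. In cysteine and methionine metabolism, 10 were called lower and 1 higher among 28 (median -0.18). By role, 2 of 10 genes of the S-adenosylmethionine cycle were lower (median -0.02). So were 3 of 9 of polyamine and methionine salvage (median -0.18) and 5 of 9 of the cysteine and related group (median -0.36). The higher call, TST, was lost in 10 alternatives. SRM, which uses decarboxylated S-adenosylmethionine, fell from 246 and 220 CPM to 178 and 173 CPM at 8 h and from 181 and 189 CPM to 81.8 and 67.4 CPM at 24 h (difference -0.90 ± 0.10, adjusted p = 6.1e-05). MAT2A, which makes S-adenosylmethionine, was a lasting fall: 547 and 553 CPM against 421 and 406 CPM at 8 h, and 545 and 541 CPM against 408 and 398 CPM at 24 h, with changes of -0.41 and -0.43 and a difference of -0.02 ± 0.06 (adjusted p = 0.87). METTL16, which methylates MAT2A RNA, fell late (-0.29 ± 0.08, adjusted p = 0.02), a call lost in 5 alternatives. METTL14, of the m6A writer complex, was a lasting rise (0.45 and 0.46), and METTL3 changed by 0.26 at 8 h and 0.04 at 24 h (difference -0.22, adjusted p = 0.067).

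Several lists lay close to the shares over all genes tested. Interferon-stimulated genes gave 3 higher and 4 lower calls among 37, with IFIT1 and IFI44 fading from 1.00 to 0.53 and from 0.63 to 0.26 while IFIH1, an RNA sensor, rose late (difference 0.52 ± 0.11). The IFIT1 call was lost in 11 alternatives and the IFI44 call in 1. Autophagy and lysosome genes gave 3 and 3 among 39, p53 targets 2 and 0 among 25, m6A and cleavage factor I genes 1 and 1 among 19, and clustered histone genes 2 and 0 among 18. In the BCL2 family, BMF, a BH3-only death gene, rose increasingly (48.5 and 43.3 CPM against 83.6 and 79.8 CPM at 8 h, and 33.4 and 34.9 CPM against 108 and 99.8 CPM at 24 h), and BID, another, fell late (difference -0.51 ± 0.09). The lasting rises with the largest change under the same rule were MXD4, a MYC antagonist (31.1 and 30.5 CPM against 76.5 and 75.6 CPM at 8 h, and 35.1 and 35.0 CPM against 96.2 and 87.7 CPM at 24 h), and ING4, a chromatin reader (changes of 1.26 and 1.46). Among genes that met the rule for naming, the late falls with the largest difference were PLBD2, a lysosomal hydrolase (-1.05 ± 0.13), ENDOD1, an endonuclease-like gene (-0.91 ± 0.13), HSPE1 and NME1, a nucleoside diphosphate kinase (-0.86 ± 0.14), and the growing falls SPR, sepiapterin reductase (-1.0 ± 0.18) and NSMF (-0.95 ± 0.17) had differences of like size.

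8CA, which carries a chlorine where 8AA carries an amino group at the 8 position of adenine, was given at the same 1 μM and times. The late minus early difference itself differed between the compounds in 1107 genes (8.71%), 498 higher (3.92%) and 609 lower (4.79%) with 8AA, and in 2334 genes without library A and 2438 without library B of 8AA at 24 h. The compounds parted most in ATF4 targets, where the difference was lower with 8AA in 38 of 41 and higher in 0: the list's median was -0.23 with 8AA and 0.72 with 8CA. PSAT1 differed by -2.36 ± 0.06 (adjusted p = 2.3e-12), ALDH1L2 by -2.71 ± 0.16 (adjusted p = 2.1e-08) and PHGDH by -1.98 ± 0.09 (adjusted p = 2.2e-09) between the compounds. Cholesterol and fatty acid synthesis was higher with 8AA in 22 of 37 and lower in 0 (medians -0.17 with 8AA and -0.64 with 8CA), and cytosolic ribosomal protein genes were lower with 8AA in 32 of 78. Without library A and without library B, ATF4 targets were lower in 37 in both cases, cholesterol and fatty acid synthesis was higher in 25 and 24, and ribosomal protein genes were lower in 75 and 42. The respiratory chain was called in 1 of 77, with medians of -0.26 and -0.30, but was lower with 8AA in 9 and higher in 2 without library A, and lower in 2 and higher in 17 without library B. Both compounds share the untreated libraries, so like values are not independent. HSPD1 differed by -0.04 ± 0.06 (adjusted p = 0.77) and LDHA by 0.14 ± 0.07 (adjusted p = 0.24), and these do not show that the compounds act alike.

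In MV4-11, a fit that took in the 24 libraries called the 8AA late minus early difference in 630 of 14055 genes (4.48%). KG-1a differed from MV4-11 in 1235 genes (8.79%), 562 higher (4%) and 673 lower (4.79%), and in 1699 genes without library A and 1372 without library B of 8AA at 24 h in KG-1a. Of the 971 genes called higher in KG-1a, 353 were higher than in MV4-11 and 0 lower, and of the 1359 called lower, 524 were lower and 0 higher, shares that the choice of genes by the KG-1a difference helps to set. Mitosis and G2/M genes were higher in KG-1a than in MV4-11 in 38 of 42, with list medians of 0.21 in the fit of KG-1a and -0.41 for MV4-11 in the fit of 24 libraries, and CENPF differed by 0.94 ± 0.09 (adjusted p = 9.9e-07). Ribosome biogenesis was lower in KG-1a in 36 of 55 (medians -0.26 and 0.16) and chaperones in 23 of 37 (medians -0.34 and 0.04), whereas the respiratory chain was called in 2 of 77 and cytosolic ribosomal protein genes in 0 of 78 by edgeR's test (1 at an unadjusted p below 0.05). Without library A and without library B, the mitosis count was 39 and 37, that of ribosome biogenesis 43 and 35 and that of chaperones 25 and 21, ribosomal protein genes again gave 0 calls, and respiratory chain genes were lower in 10 and 2 and higher in 0 and 1. HSPD1 differed between the lines by -0.82 ± 0.08 (adjusted p = 9.9e-07) and MAT2A by -0.41 ± 0.08 (adjusted p = 0.0015).

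**Figure D5:**
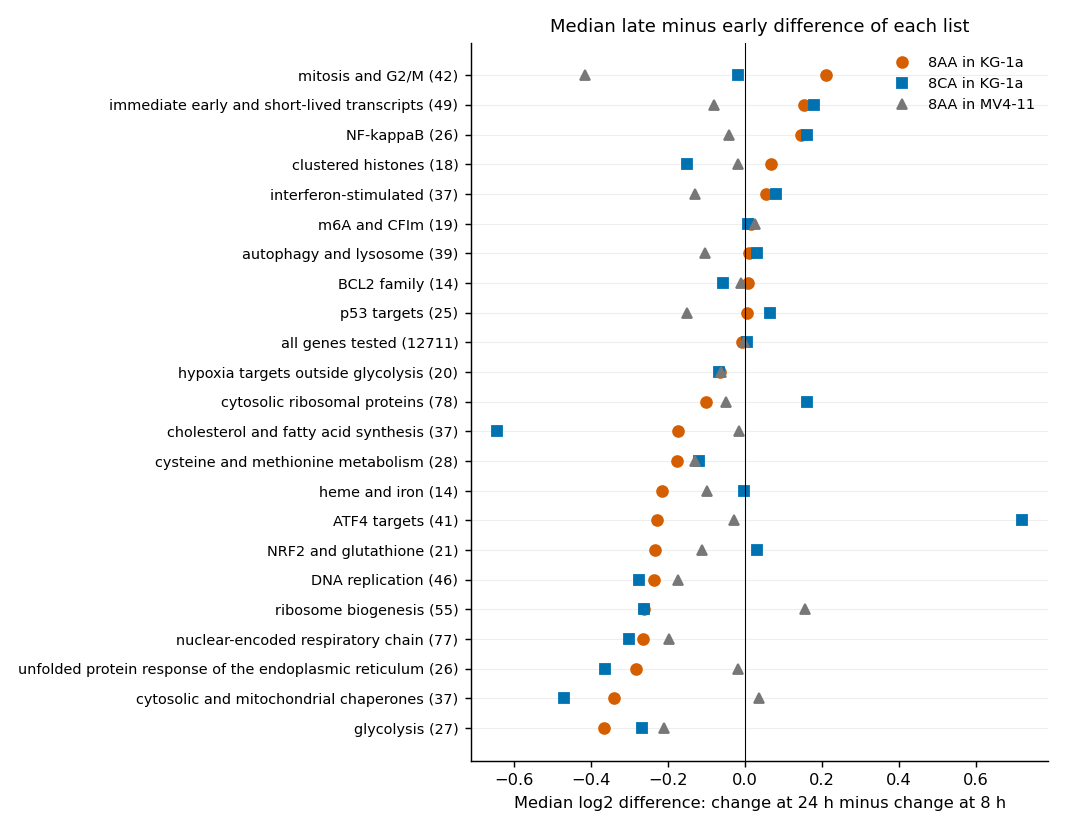
Median late minus early difference (log2, x axis) of each gene list (number of genes in parentheses) for 8AA in KG-1a (circles), 8CA in KG-1a (squares) and 8AA in MV4-11 (triangles, from the fit of 24 libraries). ATF4 targets lie at -0.23 with 8AA and 0.72 with 8CA, and mitosis genes at 0.21 in KG-1a and -0.41 in MV4-11.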

How the data were processed

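RNA from KG-1a cells, untreated or with 1 μM 8AA for 8 h or 24 h, was sequenced in 2 libraries per group. The authors deposited raw counts, whole numbers of reads per gene with no normalization. The submitters' processing notes name Trimmomatic, STAR 2.6.0, HTSeq 0.11.1 and edgeR and the builds hg19 and hg38 without saying how each was used, and no strand setting was given in the sources used here, so overlapping genes may share reads. No gene coordinates of the table are printed.

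The 12 KG-1a libraries were fitted together with edgeR 4.0.16 in R 4.3.3 (TMM factors, filterByExpr with a minimum count of 10, glmQLFit and glmQLFTest), and p-values were adjusted by the Benjamini-Hochberg method over the 12711 genes tested. MV4-11 was compared in a fit of all 24 libraries with 14055 genes. No multiplicity adjustment was made across contrasts. Errors of log2 values are standard errors, the value divided by the square root of the F statistic. On simulated counts for 12711 genes, the difference was called in 91% of 100 genes changed 2-fold at 24 h. It was called in 74% of 100 genes changed 1.5-fold and in 4 unchanged genes. The simulation gave all libraries of a gene the same spread and changed only these genes. It holds neither the wider spread of the 8AA pair at 24 h nor the many changes in the data. It therefore does not give the error rate of these data.

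The time patterns combine 3 calls and have no test of their own. Genes named by pattern were those with the largest difference, a mean of at least 3 log2 CPM, and no overlap of treated and untreated libraries where the pattern needs a call. At most 4 called members were named per list, and the genes that the study's text names were added. Members and lists were chosen with earlier results of these data known. Lists are described by counts and medians. Promoters were read from RefSeq (GRCh38.p14), matched by symbol for 9597 of the genes tested, without those of human chromosome 8. Alternatives were the scaling, filter, libraries fitted, DESeq2 1.42.0, a 2-fold rule, a replicate block and leaving out each library. A count covers counting error only as far as the reads are independent molecules.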

Additional observations from a re-analysis of the deposited data

Results flagged for a closer look

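Each group held 2 libraries, too few for a test of single libraries within a group. The 8AA change differed between 24 h and 8 h in KG-1a in 2330 genes by the interaction term of edgeR's quasi-likelihood fit, the late minus early difference differed between 8AA and 8CA in 1107 genes, and it differed between KG-1a and MV4-11 with 8AA in 1235 genes.

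Among the genes named by time pattern, the difference was higher in KG-1a than in MV4-11 by 2.93 ± 0.65 (SE) for SPOCK2, 3.52 ± 0.69 for KANK3, 1.49 for RAB37, 1.20 for BTG2, 1.12 for CLEC2D, 1.11 for C1RL and 0.78 for TSPOAP1 on the log2 scale. In MV4-11 itself the differences of SPOCK2 (-1.53 ± 0.63, adjusted p = 0.18) and KANK3 (-2.14 ± 0.68, adjusted p = 0.10) were not called by edgeR's quasi-likelihood test. These uncalled values make up the larger part of the contrast between the lines for both genes. Their errors are wider than the 0.14 of both genes in the fit of KG-1a, and levels in MV4-11 are not given here. The difference was lower in KG-1a, with values of -1.23 for ENDOD1, -0.99 for SPR, -0.99 for NSMF, -0.83 for PLBD2, -0.82 for VARS, -0.76 for PCBD1, -0.73 for HSPE1, -0.71 for DERL3, -0.66 for NME1 and -0.49 for SLC7A5. Apart from the lasting genes, these genes were named for a large difference in KG-1a. That same difference is part of the contrast between the lines and of the one between the compounds below. The choice of genes therefore helps to set the direction and size of these values.

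Between the compounds in KG-1a, the difference was higher with 8AA by 0.88 for SPOCK2, 0.77 for HEMGN, 0.70 for KANK3, 0.56 for TSPOAP1, 0.47 for FOSL1 and 0.27 for MLLT11. It was lower with 8AA, with values of -1.0 for NSMF, -0.73 for PLBD2, -0.71 for ENDOD1, -0.62 for SLC7A5 and -0.43 for RAB37.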

How the results depend on the processing

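No gene called for the difference was called in the opposite direction by an alternative. Of 1732 alternative values of the 102 named genes, 1627 stayed on the same side of the threshold, 102 fell below it and 3 passed it. No value changed sign where it or the main value was called. FOSL1, MAT2A and METTL14, not called for the difference, had alternative values of both signs. Upper quartile scaling gave 880 lower calls for the difference. With the 8 libraries of the contrast alone, lower calls numbered 873, growing genes 329, passing 186, fading 42 and turned 85. DESeq2 gave 617 higher calls, 393 growing, 191 passing, 35 fading and 67 turned genes. With a 2-fold minimum, the difference was called higher in 147 and lower in 17, the 8 h change in 116 and 121, the 24 h change in 436 and 161, and late, growing, passing, fading, turned and lasting genes numbered 85, 2, 18, 2, 3 and 99. Without a filter on low counts, the untreated libraries differed between times in 936 genes. Leaving out each library in turn gave 552 to 1649 higher and 794 to 2332 lower calls for the difference, 1332 to 2847 and 1509 to 2857 at 8 h, 2347 to 3339 and 2785 to 3662 at 24 h, and 813 to 1694 late, 259 to 1173 growing, 135 to 574 passing, 30 to 100 fading, 64 to 364 turned and 1848 to 2724 lasting genes. The total for the difference was lowest without 8AA at 8 h library A (1358) and highest without 8AA at 24 h library A (3981). Without library B of that pair it was 3045. Added after seeing the data, leaving out either 8AA library at 24 h gave 2334 to 2438 genes that differed between the compounds and 1372 to 1699 that differed between the lines. There the lone library is assumed to vary like the other groups. With 2 libraries per group, small differences have little support at this depth.

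The labels do not say whether the letters A and B pair the libraries. Correlations of the deviations of same-lettered libraries ranged from -0.287 to 0.498. All of those with the untreated group at 24 h were negative and all others were positive, and what the deviations share was not tested. The replicate block gave 2638 calls for the difference, of which 2328 were among the 2330, and changed no count by over 1.5 times. List counts over the alternatives, recounted after seeing the data, ranged from 9 to 25 lower for ATF4 targets, 10 to 14 for the endoplasmic reticulum response, 20 to 32 for chaperones, 13 to 17 for glycolysis, 21 to 40 for ribosome biogenesis, 18 to 59 for the respiratory chain and 16 to 33 for DNA replication, and from 6 to 11 higher for NF-kappaB genes.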

Other observations

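Further gene families, chosen after the values were seen, are given as counts without a test of their own. Of 47 proteasome subunit and assembly genes tested, 32 were called lower for the late minus early difference and 0 higher (median -0.33), with 4 higher and 4 lower at 8 h and 0 higher and 34 lower at 24 h. PSMD1, a scaffold of the regulatory particle, read 276 and 277 CPM untreated against 287 and 278 CPM with 8AA at 8 h, and 254 and 251 CPM against 160 and 152 CPM at 24 h (difference -0.73 ± 0.06). Mitochondrial ribosomal proteins gave 28 lower and 0 higher calls among 76 (median -0.26), and mitochondrial import genes 13 lower and 0 higher among 22 (median -0.32). Of 20 cytosolic aminoacyl-tRNA synthetase genes, 11 of which also stand in the ATF4 list, 16 were lower at 8 h, 18 at 24 h, and 11 for the difference, so that most were lower at both times. IARS went from 614 and 594 CPM untreated to 411 and 405 CPM with 8AA at 8 h, and from 605 and 597 CPM to 269 and 262 CPM at 24 h (difference -0.61 ± 0.06).

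Feedback genes of the ERK pathway were lower at 8 h in 11 of 14, with 0 higher and a median of -1.25, and in 9 of 14 at 24 h, with a median of -0.44. The difference was called higher in 4 and lower in 0. ETV5, an ERK-induced transcription factor, read 42.7 and 40.8 CPM untreated against 7.75 and 8.32 CPM with 8AA at 8 h, and 52.8 and 59.7 CPM against 25.4 and 28.3 CPM at 24 h (difference 1.31 ± 0.12). SPRED2, an inhibitor of the pathway, changed by -1.35 and then by -0.59. Of 14 T cell genes, which KG-1a expresses in part, 6 were called higher for the difference and 0 lower. The list is wider than the T cell receptor complex and its signalling. The called members were CRTAM, CD3E, LCK, IL16, CD52 and LAX1. LCK, the kinase next to the receptor, read 38.5 and 35.6 CPM against 37.1 and 37.7 CPM at 8 h, and 37.1 and 37.1 CPM against 61.8 and 58.7 CPM at 24 h. Long intergenic RNAs with a LINC name gave 21 higher and 4 lower calls among 110 (median 0.40). Zinc finger genes with a ZNF name gave 45 and 4 among 450 (median 0.12). The higher shares of 19.1% and 10% stand against 7.64% over all genes tested. Of 568 LINC genes in the table, only these 110 had enough counts for a test, and several called members were at a few CPM. The filter does not ask for counts in every library. Low genes that rise only with 8AA at 24 h can thus enter the list and raise its higher share and median. How far this sets the LINC values was not tested. Without library A and without library B of 8AA at 24 h, which stood apart, lower calls numbered 39 and 31 for the proteasome, 53 and 28 for mitochondrial ribosomal proteins, 17 and 13 for mitochondrial import and 19 and 11 for tRNA synthetases. Higher calls numbered 5 and 4 for ERK feedback genes, 6 and 5 for T cell genes, 22 and 20 for LINC genes and 96 and 59 for ZNF genes.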
